A study of Arabidopsis thaliana with 24 samples.

Results

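The third true leaf of Arabidopsis thaliana was compared between plants grown on medium with mannitol and on medium without it, at an age when the leaf had stopped growing. All loci on the array were taken as members, so the comparison runs across 20777 loci and rests on 6 of the 24 arrays of the series. The mannitol group is mature leaf 3 of Col-0 wild-type plants on 25 mM mannitol, and the control group is the same leaf of Col-0 wild-type plants on 0 mM mannitol, both grown on MS medium and harvested at day 22 with a leaf area of about 40 mm2 and with 3 arrays each. In the labels the treatment field states 25 mM mannitol even where the title says control, so the groups follow the title and the stress field. The other 18 arrays hold the same treatments in seedling shoots at stage 1.03 and in leaf 3 while it was proliferating (day 9) or expanding (day 15). Each sample pooled plants from several plates, and the 3 arrays of a group come from 3 independent experiments. Levels are log2 values in which a difference of 1 is a 2-fold difference.

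Mannitol, a sugar alcohol, makes water harder to take up from the medium, and at low dose it slows the growth of leaves without wilting the plant. Water deficit raises abscisic acid, which induces late embryogenesis abundant (LEA) proteins, dehydrins and other protective proteins, and in leaves it also raises the deposition of cuticular wax, the water barrier of the epidermis. A mature leaf no longer divides or expands its cells, exports sugar, and is closer to senescence than the leaf stages sampled earlier.

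The expression of marker genes matched the labelled tissue. Nuclear photosystem and antenna genes averaged 13.29 to 13.38 on the mannitol arrays and 13.27 to 13.33 on the control arrays, near the top of the scale, and Calvin cycle genes averaged 13.11 to 13.14 on the mannitol arrays and 13.11 to 13.16 on the control arrays. Markers of flowers averaged 3.59 to 3.77 with mannitol and 3.75 to 3.83 in control, and markers of the shoot meristem 3.81 to 3.91 with mannitol and 3.96 to 4.07 in control. All 9 of these flower and meristem genes lay below 5.11 in their mean over all 24 arrays of the series, as did 6 of 8 root markers. The level of 5.11 is the 40th percentile of all values, and levels below it are called dim here. No member of the flower, meristem, root, trichome, guard cell, stomatal lineage or vascular lists passed the limma test in either direction, and at an unadjusted p under 0.05 there were 6 higher and 8 lower among 54. With mannitol replicate 2 left out 1 flower marker fell, and with control replicate 1 or 2 left out 1 vascular marker rose. The vascular list had the highest median change among them, 0.27, with list means of 7.75, 7.56 and 7.33 on the mannitol arrays, against 7.51, 7.27 and 7.22 on the control arrays. In bulk leaf RNA, fewer cells of a type and less RNA per cell cannot be told apart.

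The 6 arrays correlated at 0.992 to 0.996 within their groups. On the first principal component of the 6 arrays, which held 46.5% of their variance, control replicate 2 stood apart from the other control arrays. The mannitol arrays scored 12.3, 21.3 and 16.2, and control replicates 1, 2 and 3 scored -25.2, -3.33 and -21.2. On the second, with 23.2% of the variance, replicate 1 scored highest and replicate 2 lowest in both groups. Replicates 1, 2 and 3 scored 16.7, -8.41 and 5.38 with mannitol, and 12.7, -19.8 and -6.67 in control. The SD of the difference from the other control arrays was 0.241, 0.241 and 0.201 for control replicates 1, 2 and 3. The array medians averaged 5.97 with mannitol and 5.93 in control, and the interquartile ranges averaged 3.75 with mannitol and 3.67 in control. The exact two-sided permutation p was 0.1 for each of these measures, the smallest that 3 against 3 arrays allow.

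Mannitol raised 621 loci (2.99% of those tested) and lowered 382 loci (1.84%) in mature leaf at a Benjamini-Hochberg adjusted p under 0.05 in limma. Most changes were small. The median change was 0.58 among the rises and -0.48 among the falls, while the median over all loci was -0.04. More loci were thus lower with mannitol than higher, which limits the counts of list members by sign below. Changes of 2-fold or more numbered 71 rises and 26 falls, and changes of 4-fold or more 7 rises and 0 falls. The 3 mannitol values and the 3 control values did not overlap at 959 of the called loci, against a background of 24.6% over all loci tested. Rises made up 61.9% of the calls. That split depended on the scaling: with every array centred on its own median, which moved all changes by -0.04, 480 loci rose, 627 fell and rises made up 43.4%. Among the rises 106 were dim in control, and among the falls 127 were dim with mannitol.

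The number of calls also depended on single arrays. With mannitol replicate 2 left out 351 loci rose and 156 fell, and with mannitol replicate 3 left out 363 rose and 172 fell. With control replicate 1 left out 391 rose and 169 fell, and with control replicate 3 left out 298 rose and 178 fell. Leaving out control replicate 2 instead gave 797 rises and 767 falls. The 15 largest rises passed the test under every alternative in which they could be tested, as did 11 of the 15 largest falls. Of all 114 called genes that the naming rule selected, 59 did.

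**Figure D1:**
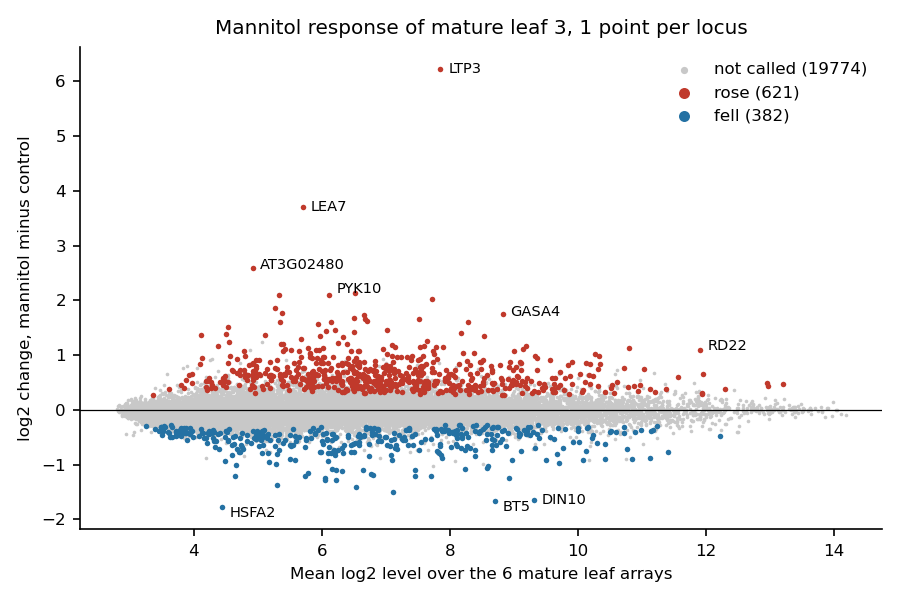
Change with mannitol (log2, y axis) against the mean log2 level over the 6 mature leaf arrays (x axis), with 1 point per locus; red points rose (621), blue points fell (382) and grey points did not pass the test. LTP3 stands alone at 6.23 and LEA7 at 3.70, while most called loci lie close to the grey band.

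**Figure D2:**
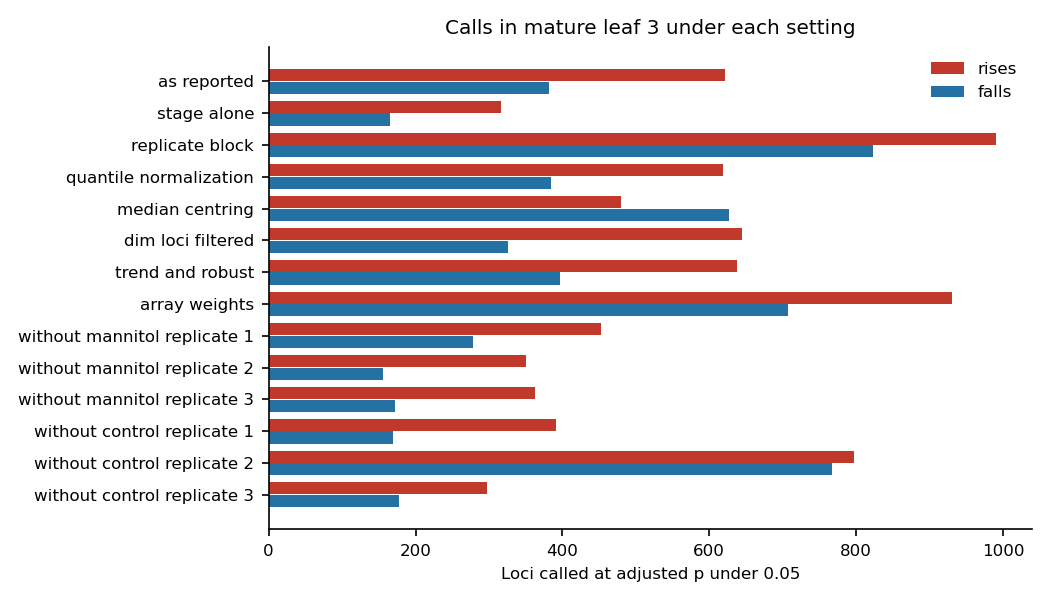
Number of loci called at adjusted p under 0.05 in mature leaf (x axis, from 0), red bars for rises and blue bars for falls, for the fit as reported and for each alternative setting (y axis). Rises outnumber falls in all settings but median centring, with 480 rises and 627 falls, and they are nearly level without control replicate 2, with 797 rises and 767 falls.

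Several lipid transfer proteins and genes of the cuticle rose with mannitol. Lipid transfer proteins are small secreted proteins that bind acyl chains and are abundant in the epidermis. Of 11 measured members of that list 5 rose and 0 fell, with a median change of 0.58 against -0.04 over all loci. LTP3 (AT5G59320) had log2 levels of 10.68, 11.15 and 11.08 on the mannitol arrays, against 3.93, 5.65 and 4.64 on the control arrays. The groups were far apart, and on 2 of the 3 control arrays LTP3 was dim. Its change of 6.23 ± 0.51 (SE, n = 3 each; adjusted p = 9.0e-08) was the largest measured. Background calls were not used here, so the size of a change against a dim level is uncertain, and no fold is given for LTP3 or for other genes that were dim in control.

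LTP4 (AT5G59310), a close relative of LTP3, was at 6.18, 6.34 and 5.95 with mannitol, against 4.81, 4.43 and 4.41 in control. All control values were dim, the groups did not overlap, and the change was 1.61 ± 0.26 (adjusted p = 0.000597). Whether the probes for LTP3 and LTP4 read each other's transcripts was not tested. LTP1 (AT2G38540) was already among the most abundant transcripts, at 13.20, 13.19 and 13.21 with mannitol, against 12.62, 12.76 and 12.74 in control, and it rose by 0.49 (adjusted p = 0.0011). LTP2 rose by 1.12 and LTP6 by 0.58, with adjusted p of 0.0172 and 0.0109. LTP5 (0.32) and LTP7 (0.13) did not pass the test. Without mannitol replicate 1 the count of risen members was 3.

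Wax and cutin genes numbered 12 rises and 0 falls among 27 measured, with a median change of 0.32. The count of 12 became 8 without mannitol replicate 2 or 3 or control replicate 1 or 3. WSD1 (AT5G37300), the wax ester synthase of the cuticle, was at 7.10, 7.07 and 6.68 with mannitol, against 5.03, 5.60 and 5.42 in control. The groups were separated by more than 1 log2 unit, with a change of 1.60 ± 0.18 (adjusted p = 6.63e-06). The other called members that the naming rule selected were KCS2 (1.44), an elongase of very-long-chain acyl chains, CER2 (0.80), which acts with the elongase on the longest chains, CER10 (0.72), the enoyl-CoA reductase of the elongase, KCS20 (0.53), and LTPG1 (0.46), a surface-anchored protein of wax export. Each kept the call under every alternative in which it was tested. The most abundant members that did not pass were CER5 (0.17), a transporter of wax, and the epidermal elongase FDH (AT2G26250, 0.15).

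The elongase component 3-ketoacyl-CoA synthase (KCS), which sets the length of the acyl chain, was counted as a family after its values had been seen. Some members, KCS1, KCS2 and KCS20 among them, count in the wax list too, so the 2 counts are not separate. Of 19 measured KCS genes 8 rose and 0 fell, and their median change was 0.38. KCS19 (AT5G04530) was at 7.60, 7.46 and 7.47 with mannitol, against 5.72, 6.04 and 5.79 in control, a change of 1.66 ± 0.11 (adjusted p = 4.19e-09). KCS16 (AT4G34250) was at 7.40, 7.33 and 7.33 with mannitol, against 5.40, 6.21 and 5.39 in control, a change of 1.68 ± 0.18 (adjusted p = 3.14e-06). For both genes the arrays of each group lay apart, with control replicate 2 the highest of the control arrays. The count of 8 became 4 without mannitol replicate 2, and 5 without mannitol replicate 3, control replicate 1 or control replicate 3. Markers of epidermal identity, also counted after their values had been seen, had list means of 6.62 to 6.75 with mannitol and 6.64 to 6.71 in control. Of those 4 genes 1 rose (PDF2, AT4G04890, by 0.43) and 0 fell. The rise was lost when mannitol replicate 2 or 3 or control replicate 1 or 3 was left out, and with control replicate 2 left out 1 member fell.

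Genes of abscisic acid and dehydration response rose at 10 of 28 measured members and fell at 1, with a median change of 0.37. The count of 10 became 7 without control replicate 1, and 8 without mannitol replicate 2 or control replicate 3. LEA4-5 (AT5G06760), a LEA protein of water deficit, was at 7.58, 7.86 and 7.31 with mannitol, against 5.46, 5.16 and 5.75 in control. RD29B (AT5G52300), a reporter gene of abscisic acid signalling, was at 7.37, 7.59 and 7.60 with mannitol, against 5.83, 5.90 and 5.99 in control. Both genes were higher on every mannitol array than on any control array. Their changes were 2.13 ± 0.20 (adjusted p = 4.91e-07) and 1.61 ± 0.15 (adjusted p = 3.65e-07).

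RD22 (AT5G25610), a dehydration-responsive gene with a high level in both groups, was at 12.34, 12.50 and 12.53 with mannitol, against 11.20, 11.57 and 11.32 in control, and it rose by 1.09 (adjusted p = 4.77e-06). TSPO, a membrane protein induced by abscisic acid, rose by 1.22, and the dehydrin ERD10 by 0.99. RD29A, which responds to cold and drought, rose by 1.40 (adjusted p = 0.00666), with control replicate 1 the lowest array at 6.86. The member that fell was NAC055, a transcription factor of jasmonate and drought responses, at 3.91, 4.07 and 4.08 with mannitol, against 4.90, 5.0 and 4.94 in control (-0.93, adjusted p = 1.92e-05). It was dim on all 6 arrays, and with control replicate 2 left out the list had 2 falls. Among members with high levels that did not pass, ERD14, a dehydrin, changed by 0.66 and RD20, a caleosin, by 0.39.

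LEA7 (AT1G52690) had the second largest measured rise. Its levels were 7.96, 7.45 and 7.26 with mannitol, against 3.93, 3.80 and 3.84 in control. All 3 control arrays were dim and close together, the groups lay far apart, and the change was 3.70 ± 0.25 (adjusted p = 5.70e-09), with a size that depends on the dim control level. The LEA genes by name, counted after their values had been seen, held 3 rises and 0 falls among 9 measured. Of 7 measured HVA22 genes, a family induced by abscisic acid that was also counted after its values had been seen, 2 rose (HVA22E by 1.36 and HVA22C by 0.89) and 0 fell, or 1 fell with control replicate 1 left out.

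Several of the largest rises are loci for which the reference table gives no symbol. AT3G02480 was at 6.99, 5.75 and 5.91 with mannitol, against 3.65, 3.64 and 3.58 in control (2.59, adjusted p = 0.00281). Mannitol replicate 1 was more than 1 log2 unit above the other mannitol arrays, and the groups did not overlap. AT1G27030 rose by 2.1, AT1G75900 by 2.02, AT3G13672 by 1.86, AT5G53710 by 1.77 and AT3G05640 by 1.66.

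Genes that make and sense abscisic acid moved little. Of 34 measured members 2 rose and 0 fell, with a median change of -0.03. The 2 were CYP707A2 (0.71), an enzyme of abscisic acid breakdown, and HAI2 (0.90), a protein phosphatase that restrains the signal. HAI2 lay at 6.69, 7.73 and 7.41 with mannitol, against 5.90, 6.89 and 6.35 in control, so the groups overlapped. The rises numbered 0 without mannitol replicate 2 or 3 or control replicate 1 or 3 and 1 without mannitol replicate 1, and with control replicate 2 left out 1 member fell. Among 9 CBF and DREB factors, activators of cold and drought genes, 0 rose and DREB2A fell by 0.65 (adjusted p = 0.0296), a call kept without control replicate 2 and lost without any other of the 6 arrays.

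**Figure D3:**
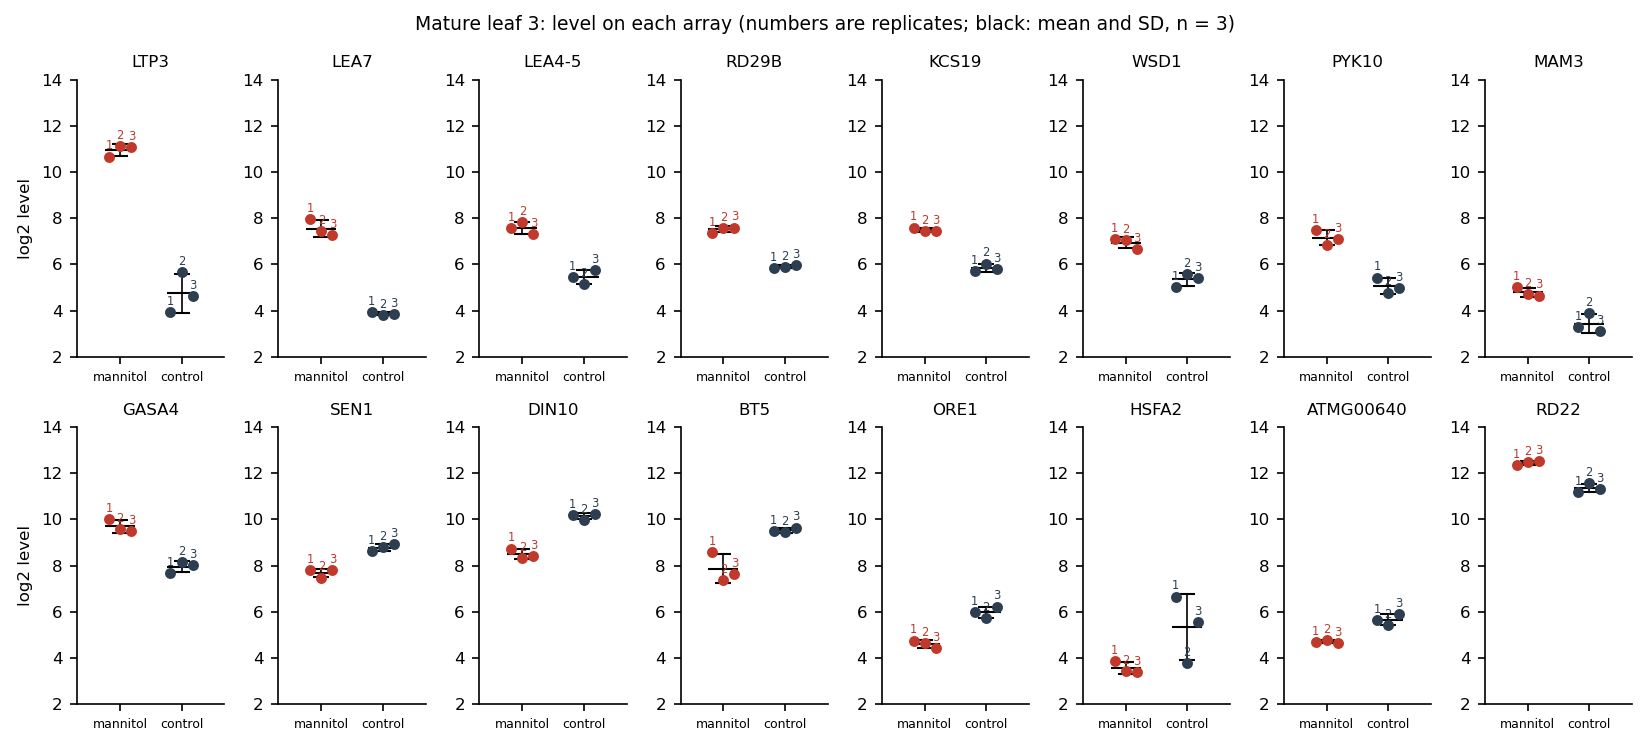
Log2 level (y axis) of named genes on each mature leaf array, mannitol at left in red and control at right in dark blue, with the replicate number above each point and the mean and SD (n = 3) in black. The groups do not overlap for any gene shown except HSFA2, whose control replicate 2 (3.78) lies below mannitol replicate 1 (3.87).

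Most aliphatic glucosinolate genes rose with mannitol. These genes make sulfur-rich defence compounds from methionine: elongation of the side chain, formation of the core, and modification of the chain, under the control of MYB28, MYB29 and MYB76. All 15 measured members were higher with mannitol, 10 rose and 0 fell, and their median change was 0.78, the highest of all lists. MAM3 (AT5G23020), a synthase of the chain elongation step, was at 5.02, 4.70 and 4.65 with mannitol, against 3.28, 3.89 and 3.12 in control. It was dim on all 6 arrays, the groups lay apart, and the change was 1.36 ± 0.20 (adjusted p = 0.000255).

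GSTU20 (AT1G78370), a glutathione transferase of the core pathway, was at 11.26, 11.13 and 10.94 with mannitol, against 10.42, 10.61 and 9.99 in control, and it rose by 0.77 ± 0.15 (adjusted p = 0.00298). The regulator MYB29 rose by 0.97 (adjusted p = 0.0148), SOT17, a sulfotransferase of the core, by 0.88, BAT5, the plastid transporter of the chain precursors, by 0.82, and FMOGS-OX1, which oxidises the side chain, by 0.66. For all 6 named members control replicate 3 was the lowest array. The most abundant members that did not pass were CYP83A1 (0.54), an enzyme of the core, and BCAT4 (0.73), which starts chain elongation. The count of 10 rises became 2 without control replicate 3, 2 without mannitol replicate 2, 3 without mannitol replicate 1 and 5 without control replicate 1, and it was 4 with mature leaf alone in the fit.

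Genes of camalexin and indole glucosinolates, made from tryptophan, had 3 rises and 0 falls among 15 measured, and a median change of 0.37. The 3 were CYP79B2 (0.91) and CYP79B3 (0.84), which carry out the first step from tryptophan, and the regulator MYB34 (0.40). Without mannitol replicate 2 or control replicate 3 the count was 0, and without mannitol replicate 1 or 3 it was 1. Among 10 measured genes of ER bodies, compartments that store the glucosidase PYK10, 3 rose and 0 fell. PYK10 (AT3G09260) was at 7.49, 6.85 and 7.11 with mannitol, against 5.43, 4.78 and 4.97 in control, a change of 2.09 ± 0.29 (adjusted p = 0.000117). NAI2, needed to form ER bodies, rose by 0.91, and the lectin JAL22 by 0.98.

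Some genes known to be induced by darkness or sugar starvation fell with mannitol. Of 20 measured members 6 fell and 0 rose, with a median change of -0.32. The falls numbered 4 without mannitol replicate 2 or 3, and also with mature leaf alone in the fit. They numbered 5 when any other array was left out. DIN10 (AT5G20250), a dark-inducible raffinose synthase family member, was at 8.74, 8.32 and 8.42 with mannitol, against 10.20, 9.99 and 10.23 in control. The groups were more than 1 log2 unit apart, and the change was -1.65 ± 0.22 (adjusted p = 6.39e-05). SEN1 (AT4G35770), a marker of darkness and senescence, was at 7.79, 7.48 and 7.79 with mannitol, against 8.62, 8.79 and 8.93 in control (-1.09, adjusted p = 0.0172). BGAL4, a galactosidase, fell by 1.15, TPS11, a trehalose phosphate synthase family member, by 0.81, DIN4, a subunit of branched-chain amino acid breakdown, by 0.48, and DIN2, a glucosidase, by 0.38. ASN1, a textbook sugar-repressed gene, was chosen after its values were seen and did not pass, with a change of 0.07.

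The largest fall among loci whose groups did not overlap was that of BT5 (AT4G37610), a BTB and TAZ domain protein. It was at 8.57, 7.38 and 7.64 with mannitol, against 9.51, 9.44 and 9.65 in control, a change of -1.67 ± 0.30 (adjusted p = 0.00156), with mannitol replicate 1 nearest to the control arrays. ERD5, the first enzyme of proline breakdown, fell by 1.09 (adjusted p = 0.00155), and TRE1, which splits trehalose, by 0.76 (adjusted p = 0.00336). Genes of starch breakdown, a list made after values had been seen, held 4 rises and 1 fall among 14 measured. PHS1 (AT3G29320), the plastid starch phosphorylase, was at 6.71, 7.39 and 6.90 with mannitol, against 5.58, 6.0 and 5.44 in control, a change of 1.33 (adjusted p = 8.9e-05). SEX4, a phosphoglucan phosphatase, rose by 1.07, DPE1 by 0.72 and the maltose exporter MEX1 by 0.52, while the amylase BAM3 (AT4G17090) fell by 0.88, a call that was lost without mannitol replicate 2 or 3 or control replicate 1 or 3. Among 23 measured sugar and polyol transporters, SWEET4 rose by 1.03, SWEET17, a fructose carrier of the vacuole, rose by 0.75, and the hexose uptake carrier STP1 fell by 0.59, which was lost without any array but mannitol replicate 2.

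Among 18 genes of senescence and chlorophyll breakdown 0 rose and 1 fell, with a median change of -0.11. The gene was ORE1 (AT5G39610), a NAC factor that promotes leaf senescence. It was at 4.75, 4.66 and 4.41 with mannitol, against 6.0, 5.74 and 6.22 in control, and it fell by 1.38 ± 0.19 on the log2 scale (adjusted p = 7.97e-05). All mannitol values were dim and all control values were above the dim level. RAV1 (AT1G13260), another factor linked to leaf ageing and growth, was at 5.67, 5.13 and 5.48 with mannitol, against 6.90, 6.49 and 6.61 in control, and fell by 1.24 (adjusted p = 0.000105).

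Heat shock genes were lower with mannitol at 15 of 17 measured members, but 2 fell and 0 rose, and their level varied among the control arrays. Their median change was -0.27 against -0.04 over all loci. HSFA2 (AT2G26150), a heat stress factor, was at 3.87, 3.42 and 3.38 with mannitol, against 6.65, 3.78 and 5.56 in control. Control replicate 2 was level with the mannitol arrays, so the groups overlapped. The change was -1.78 ± 0.38 (adjusted p = 0.00645). HSP101 (AT1G74310), a disaggregase, was at 5.95, 5.09 and 5.19 with mannitol, against 7.47, 5.81 and 6.79 in control (-1.28, adjusted p = 0.0077), again with control replicate 2 the lowest control array. The list means were 6.66, 6.39 and 6.52 on the mannitol arrays, and 7.28, 6.59 and 6.96 on the control arrays. Without control replicate 2 the list had 7 falls, and without control replicate 1 or mannitol replicate 2 it had 1. Fes1A, a partner of heat shock protein 70, fell by 1.21 (adjusted p = 0.00397).

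Transcripts of the mitochondrial genome were lower with mannitol at 29 of 31 measured loci, with 9 falls, 0 rises and a median change of -0.42. The list means were 4.76, 4.69 and 4.78 on the mannitol arrays, against 5.17, 5.14 and 5.16 on the control arrays, with no overlap between groups. The locus with the smallest p, ATMG00640, was at 4.69, 4.78 and 4.64 with mannitol, against 5.62, 5.43 and 5.90 in control (-0.95, adjusted p = 1.92e-05). ATMG01370 was at 7.41, 7.49 and 7.43 with mannitol, against 8.24, 8.47 and 8.26 in control (-0.88, adjusted p = 0.0108). Of the 31 loci 24 were dim in their mean over all 24 arrays of the series. Mitochondrial transcripts carry no stable poly(A) tail, and the nuclear genome holds a near-identical copy of mitochondrial DNA, so the source of this signal is uncertain. The count of 9 became 5 without mannitol replicate 2. Plastid genome transcripts had 0 rises and 0 falls in limma among 73 measured, and 3 higher and 1 lower at an unadjusted p under 0.05, or 2 rises and 1 fall with control replicate 2 left out, with list means of 11.15, 11.26 and 11.21 on the mannitol arrays and 11.08, 11.25 and 11.10 on the control arrays.

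**Figure D4:**
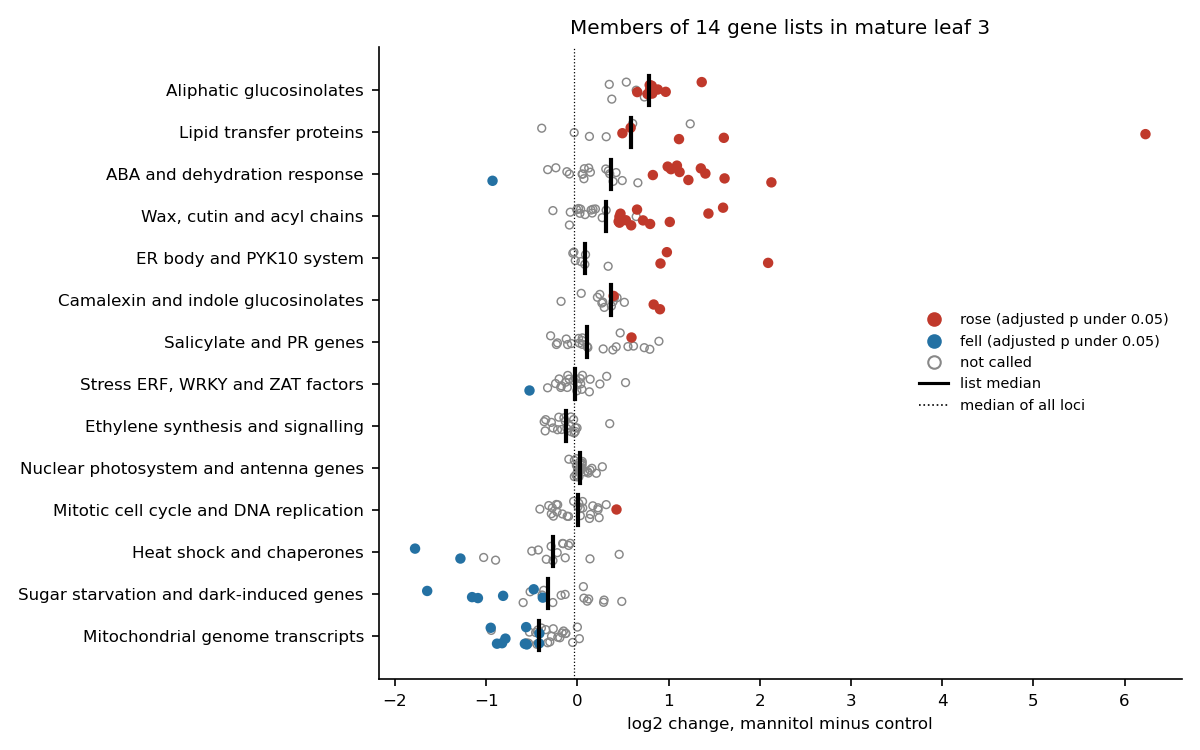
Change with mannitol (log2, x axis) of each measured member of selected gene lists (y axis) in mature leaf, red for rises, blue for falls and open circles for members that did not pass the test; the black bar is the list median and the dotted line the median of all loci, -0.04. Medians run between 0.78 for aliphatic glucosinolates and -0.42 for mitochondrial genome transcripts.

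Genes of growth, hormones and the cell wall changed at single members. GASA4 (AT5G15230), a small secreted peptide responsive to gibberellin, was at 10.02, 9.59 and 9.49 with mannitol, against 7.69, 8.16 and 8.02 in control, a change of 1.74 ± 0.13 (adjusted p = 3.78e-08). GA3OX1, the enzyme that activates gibberellin, rose by 0.91, while GASA1 fell by 0.90 and GA2OX1, which inactivates gibberellin, by 0.57, a list with 1 fall in place of 2 without mannitol replicate 1 or 3 or control replicate 2 or 3. These were among 3 rises and 2 falls in 27 measured gibberellin genes, whose median was -0.01.

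Expansins and xyloglucan endotransglucosylases (XTH), which loosen the cell wall, held 4 rises and 3 falls among 37 measured. EXPA4 was at 7.49, 7.55 and 7.47 with mannitol, against 5.99, 6.87 and 6.33 in control, and rose by 1.10 (adjusted p = 0.000358). XTH24 was at 6.92, 5.65 and 6.50 with mannitol, against 8.09, 7.38 and 8.11 in control, and fell by 1.50 (adjusted p = 0.00367). The groups did not overlap for either gene. The falls in this list numbered 1 without control replicate 1 or 3. The rises numbered 1 without control replicate 1 or 3, and 2 without any 1 of the mannitol replicates. In the flavonoid list 3 of 21 rose and 1 fell. Chalcone synthase TT4 rose by 1.16, FLS1 (flavonol synthase) by 0.87 and the anthocyanin regulator PAP1 (AT1G56650) by 0.84. The rises in this list numbered 2 without any 1 of the 6 arrays. PAL2 fell by 0.40, which was lost without any array but control replicate 2, when 2 members fell. Of 10 measured brassinosteroid genes 1 rose and 2 fell, among the falls BAS1, which inactivates brassinosteroids, by 0.80. The rise was lost without any array but control replicate 2, and the falls numbered 1 without any 1 of the 6 arrays. Auxin genes numbered 0 rises and 2 falls among 26, and cytokinin genes 0 rises and 1 fall among 21. The auxin calls numbered 0 without any mannitol replicate or control replicate 3 and 1 without control replicate 1, with 1 rise when control replicate 2 was left out, and the cytokinin call was lost without mannitol replicate 1 or 2 or control replicate 1 or 3.

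Defence and stress-signalling lists held few calls. Among 23 stress ERF, WRKY and ZAT factors 0 rose and 1 fell (AZF2, -0.53, kept without control replicate 1 and lost without any other array), with a median change of -0.02, and 1 rose with mannitol replicate 1 left out. Among 20 ethylene genes 0 passed in limma, and 1 was higher and 2 lower at an unadjusted p under 0.05. By sign 19 of 20 were lower with mannitol, with a median change of -0.12 against -0.04 over all loci. The list means were 6.63, 6.62 and 6.64 on the mannitol arrays, against 6.79, 6.70 and 6.79 on the control arrays. Among 23 salicylate genes 1 rose (ICS1, the salicylate synthesis enzyme, by 0.59). This list varied with the replicate in both groups, with means of 5.71, 4.88 and 5.55 on the mannitol arrays and 5.53, 4.76 and 5.18 on the control arrays, replicate 2 being lowest in each. PR5, a pathogenesis-related protein, was at 6.76, 5.46 and 6.62 with mannitol, against 6.76, 4.59 and 6.07 in control, and did not pass (0.47, adjusted p = 0.568). Without mannitol replicate 2 the salicylate list had 5 rises, without control replicate 1 it had 0, and without control replicate 2 it had 1 fall. A fit with the replicate block takes out differences shared by arrays of the same number. It gave 6 rises and 0 falls in the salicylate list, and 990 rises and 823 falls over all loci. Chitinases had 1 rise among 15 (CHI, AT2G43570, by 1.73), which was lost without mannitol replicate 1 or 3 or control replicate 2 or 3, and with mannitol replicate 2 left out the list had 3 rises. Jasmonate genes had 4 rises and 1 fall among 27, with 0 rises when mannitol replicate 1 or 3 or control replicate 3 was left out, 1 when control replicate 2 was, and 2 when mannitol replicate 2 or control replicate 1 was. The falls numbered 0 when mannitol replicate 1 or 2 or control replicate 1 or 3 was left out, and 2 when control replicate 2 was.

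Photosynthesis and cell division genes showed almost no calls. The photosystem list (29 measured) and the Calvin cycle list (13 measured) had 0 rises and 0 falls in limma, with medians of 0.02 and -0.01. At an unadjusted p under 0.05 they had 1 and 0 members. Of 26 genes of mitosis and DNA replication 1 rose (PCNA1, 0.42), and that call was lost without any 1 of the 6 arrays. Iron genes had 0 calls in limma among 15, also at an unadjusted p under 0.05. Their list means were 7.68, 7.34 and 7.27 on the mannitol arrays and 7.57, 7.52 and 7.46 on the control arrays. Replicate 1 had the highest mean in each group. The ferritin FER1 was at 9.29, 11.55 and 11.31 with mannitol, against 9.83, 11.30 and 10.59 in control. Its level was lowest on replicate 1 in both groups.

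The mannitol effect in mature leaf was then set against the effect in the other harvests, each with its own mannitol and control arrays. In seedlings 244 loci rose (1.17%) and 57 fell (0.274%), in proliferating leaf 327 rose (1.57%) and 50 fell (0.241%), and in expanding leaf 836 rose (4.02%) and 753 fell (3.62%). Of the mature leaf rises 146 also rose in expanding leaf, which is 23.5% of the mature leaf rises and 17.5% of those in expanding leaf. Of the falls 92 were shared, 24.1% of the mature leaf falls and 12.2% of those in expanding leaf. With seedlings 52 rises were shared, 8.37% of the mature leaf rises and 21.3% of the seedling rises, and 13 falls, 3.40% of the mature leaf falls and 22.8% of the seedling falls. With proliferating leaf 22 rises (3.54% of those in mature leaf, 6.73% of those in proliferating leaf) and 3 falls (0.785% and 6% in that order) were shared.

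The test of the difference itself called 709 loci against expanding leaf, of which 344 had the higher effect in mature leaf (1.66%) and 365 the lower (1.76%). Against proliferating leaf 261 were higher (1.26%) and 287 lower (1.38%), and against seedlings 163 were higher (0.785%) and 108 lower (0.52%). Without mannitol replicate 2 the differing loci numbered 151 for seedlings, 337 for proliferating leaf and 436 for expanding leaf. The seedling count was 409 with control replicate 2 left out, and 179 or 177 with control replicate 1 or 3 left out.

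LEA7 and WSD1 had a larger effect in mature leaf than at any other harvest, while most members of their lists did not pass the test of the difference. Of 9 LEA genes the effect in mature leaf was higher than in seedlings for 2 and lower for 0, higher than in proliferating leaf for 3 and lower for 2, and higher than in expanding leaf for 2 and lower for 2. Of 27 wax and cutin genes it was higher for 4, 4 and 3 and lower for 0, 0 and 1, in the same order of harvests. LEA7 averaged 7.56 ± 0.36 with mannitol and 3.86 ± 0.06 in control (SD, n = 3 each), while in expanding leaf it averaged 4.44 ± 0.71 with mannitol and 3.77 ± 0.06 in control. Its effect in mature leaf was larger by 3.86 than in seedlings, by 3.93 than in proliferating leaf and by 3.04 than in expanding leaf (adjusted p = 7.40e-07, 7.59e-07 and 1.35e-05). WSD1 changed by -0.39 in seedlings, -0.34 in proliferating leaf, 0.23 in expanding leaf and 1.60 in mature leaf. The differences of mature leaf from the other 3 harvests passed the test (1.99, 1.93 and 1.37). LEA4-5, RD29B, KCS19 and AT3G13672 also had effects that differed from all 3 other harvests. The abscisic acid and dehydration list, which holds LEA4-5 and RD29B, had 2 rises in seedlings, 1 in proliferating leaf, 12 in expanding leaf and 10 in mature leaf, with median changes of 0.02, -0.04, 0.53 and 0.37. Of its 28 members the effect in mature leaf was higher for 4 and lower for 1 than in seedlings, higher for 8 and lower for 1 than in proliferating leaf, and higher for 2 and lower for 4 than in expanding leaf. KCS19 changed by -0.03 in seedlings, -0.06 in proliferating leaf, 0.59 in expanding leaf and 1.66 in mature leaf. Its control level was lowest in mature leaf, at 5.85 ± 0.17.

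LTP3 averaged 10.97 ± 0.26 with mannitol and 4.74 ± 0.87 in control in mature leaf. In expanding leaf it averaged 7.47 ± 0.51 with mannitol and 3.86 ± 0.07 in control, and the effect was larger in mature leaf by 2.62 (adjusted p = 0.0449). For LTP2 the difference had the opposite sign. It averaged 5.99 ± 0.15 with mannitol and 4.88 ± 0.52 in control in mature leaf, against 10.87 ± 0.15 with mannitol and 4.78 ± 0.37 in control in expanding leaf. The effect was lower in mature leaf by 4.98 on the log2 scale (difference -4.98, adjusted p = 4.58e-08). RD29A and PYK10 rose in expanding leaf too, by 1.52 and 1.91, and for these the difference between the 2 harvests did not pass the test (-0.12 and 0.18).

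**Figure D5:**
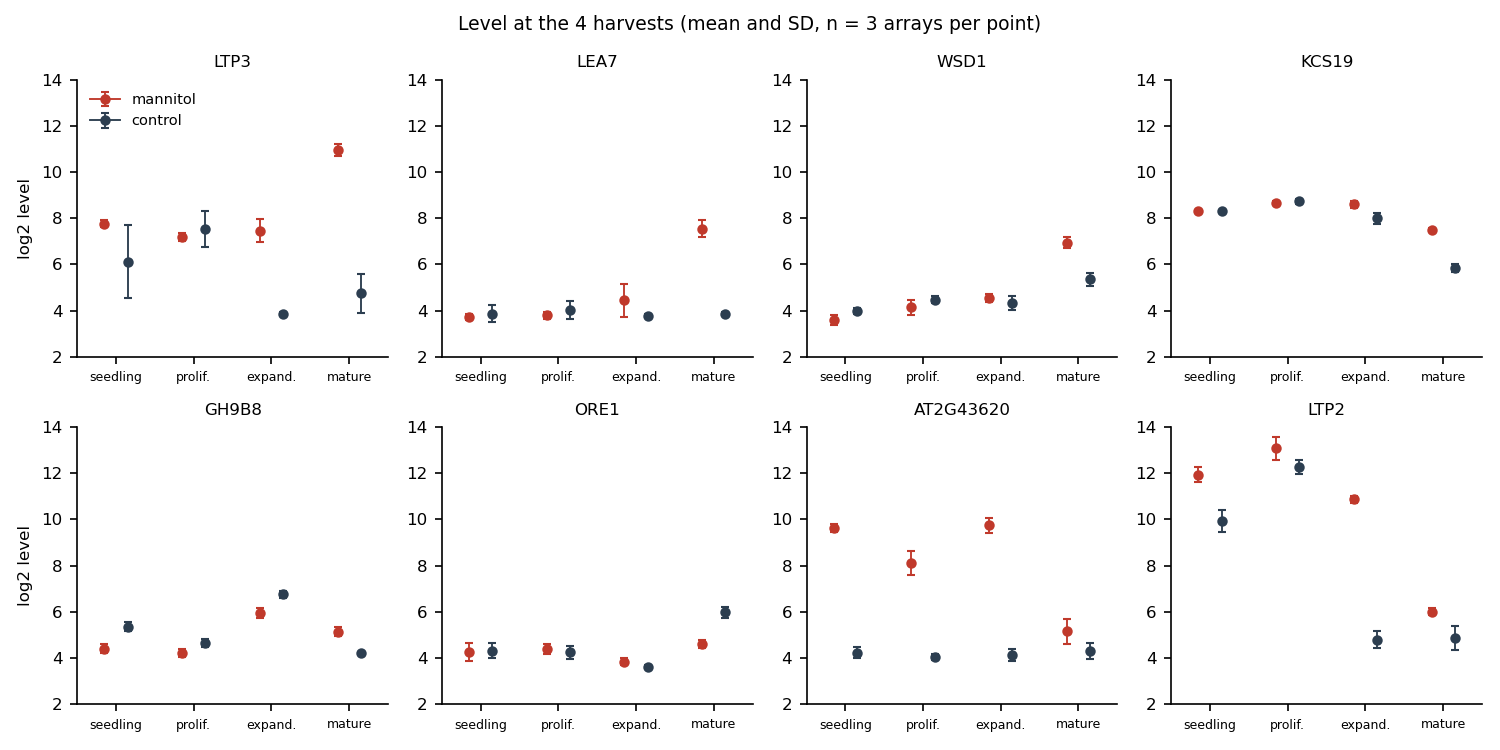
Log2 level (y axis) of selected genes at the 4 harvests (x axis), mannitol in red at left and control in dark blue at right of each pair, as mean and SD of 3 arrays. LEA7 is raised in mature leaf, with 7.56 with mannitol and 3.86 in control, while AT2G43620 is far above its control at the other harvests and at 5.15 with mannitol and 4.30 in control in mature leaf.

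The aliphatic glucosinolate genes differed by harvest. Their median change was 0.50 in seedlings, -0.11 in proliferating leaf, -0.20 in expanding leaf and 0.78 in mature leaf, and 10 rose in mature leaf against 0 at each other harvest. For 7 of the 15 the effect was higher in mature than in expanding leaf, and for 2 than in proliferating leaf. MAM3 differed from expanding leaf by 1.40 (adjusted p = 0.0072) and GSTU20 by 0.97 (adjusted p = 0.0102). The difference from seedlings passed for 0 of the 15 in limma, and for 1 without control replicate 2. The count of 7 became 2 without mannitol replicate 1 or 2 or control replicate 3, and 4 without control replicate 1, and the count of 2 became 5 without control replicate 2.

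Some defence and stress genes had a lower effect in mature leaf. Stress ERF, WRKY and ZAT factors had 5 rises in seedlings, 11 in proliferating leaf, 11 in expanding leaf and 0 in mature leaf. The effect was lower in mature leaf than in seedlings for 2 of the 23, than in proliferating leaf for 8 and than in expanding leaf for 7. With mannitol replicate 2 left out, 3 members differed from expanding leaf, and with control replicate 3 left out, 4 did. With control replicate 1 or 3 left out, 5 members differed from proliferating leaf. WRKY30, a stress-induced factor, changed by 2.19 in seedlings, 3.42 in proliferating leaf, 3.85 in expanding leaf and 0.13 in mature leaf, and all 3 differences passed the test. AT2G43620, from the chitinase list, was at 5.15 ± 0.55 with mannitol and 4.30 ± 0.36 in control in mature leaf, and its change of 0.85 did not pass (adjusted p = 0.0529). It changed by 5.61 in expanding leaf, and the difference was -4.75 (adjusted p = 4.58e-08). BCB, a blue copper protein, changed by -0.26 in mature leaf and by 3.62 in expanding leaf, and AT1G65500 rose by 0.97 in mature leaf and by 4.86 in expanding leaf. CYP81F2, which modifies indole glucosinolates, changed by 0.04 in mature leaf and by 3.80 in expanding leaf.

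GH9B8 (AT2G32990), an endoglucanase family member, changed in opposite directions. It was at 4.93, 5.29 and 5.19 with mannitol, against 4.2, 4.25 and 4.18 in control in mature leaf, and rose by 0.93 (adjusted p = 0.00014). It fell by 0.80 in expanding leaf and by 0.95 in seedlings, and the differences of 1.73 and 1.88 passed the test. In all, 18 of the 621 loci that rose in mature leaf fell in expanding leaf. Of the 382 that fell in mature leaf, 4 rose in expanding leaf. Over all loci 3.62% fell and 4.02% rose in expanding leaf, and neither count was above that share. ORE1 changed by -0.05 in seedlings, 0.16 in proliferating leaf, 0.20 in expanding leaf and -1.38 in mature leaf, and the differences of mature leaf from the others (-1.33, -1.53 and -1.58) passed the test. RAV1 rose by 0.67 in proliferating leaf, and its effect was lower in mature leaf by a difference of -1.91 (adjusted p = 5.28e-05). Mitochondrial genome transcripts had a lower effect in mature than in proliferating leaf at 9 of 31 loci. The effect was lower than in expanding leaf at 3 loci and than in seedlings at 2. The count for expanding leaf became 1 without mannitol replicate 2. That for seedlings became 1 without mannitol replicate 2 or control replicate 1 or 3.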

How the data were processed

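RNA was hybridised to Affymetrix ATH1 arrays, and the deposited values are log2 levels, 1 per locus and array, made by the authors with RMA per the submitters' processing notes. The RMA version and the grouping of probes into loci are not given in the sources that were used here. The log2 scale was read from the values, 2.52 to 14.4. No further normalization was applied. Symbols came from a RefSeq gene table (TAIR10.1), which held 20508 of 20777 loci.

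Samples were grouped by title and stress field. A model of 8 group means was fitted to all 24 arrays in R 4.3.3 with limma 3.58.1 (lmFit, eBayes). Tests were two-sided, with Benjamini-Hochberg adjustment over all loci and a threshold of 0.05. All errors of a change are the SE of that fit. A run on simulated arrays with independent noise checked the size of the estimated changes. It left out differences shared by arrays of the same number, so it cannot show their effect on the calls. Differences between harvests are contrasts of 2 mannitol effects. Harvests use separate arrays, but all share the estimate of spread.

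The members and lists were chosen with earlier results of these data known, and 5 lists were added after values were seen. Lists held 977 memberships, of which 888 were measured, 68 were not and 21 were dropped because the symbol did not match. The naming rule took the 15 largest rises and 15 largest falls with groups apart, up to 6 called members of each list with the smallest p, up to 2 members with the highest level that did not pass, and the 8 largest differences each way from each harvest. Other genes named are said to be chosen afterwards, as are the members of the added lists.

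The alternatives were mature leaf alone, the replicate block, quantile normalization, median centring and leaving out dim loci. A trended and robust prior, array weights and leaving out each array were the others. A 2-fold minimum was applied to the total counts only, not to the calls of single genes. Promoter motifs and sequences were not analysed here.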

Additional observations from a re-analysis of the deposited data

Results flagged for a closer look

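The difference in mannitol effect between mature leaf and another harvest passed the limma test at 271 loci for seedlings, 548 for proliferating leaf and 709 for expanding leaf.

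Against expanding leaf, the effect in mature leaf was lower for LTP2 (-4.98), AT2G43620 (-4.75), ATPMEPCRB, a pectin methylesterase (-4.28), PNP-A (-4.03), AT1G26380 (-3.98) and BCB (-3.87). It was higher for PCC1 (3.39), AT1G19960 (3.17), AT5G03350 (2.46), AT1G05310 (2.15) and AT3G13672 (1.96). PCC1, AT1G19960 and AT5G03350 did not pass the test in mature leaf itself and fell in expanding leaf.

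Against proliferating leaf, the effect was lower for AT3G16530 (-4.49), AT2G43590 (-3.39), WRKY30 (-3.29), AT2G39400 (-3.27) and UGT74E2 (-3.10). It was higher for LTP3 (6.58), LEA7 (3.93), PYK10 (2.2), RD29A (1.99) and AT1G27030 (1.88).

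Against seedlings, the effect was lower for AT1G65500 (-3.94), PR5 (-2.97) and CYP81F2 (-2.75). It was higher for LEA4-5 (2.17), WSD1 (1.99), GH9B8 (1.88) and KCS19 (1.69).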

How the results depend on the processing

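Of the 30 largest rises and falls, 26 were called in every alternative tested, as were 59 of the 114 called genes that the naming rule selected, and no called change of a named gene reversed its sign (0 of the results computed). With mature leaf alone in the fit 316 loci rose and 165 fell, and 434 differed from expanding leaf. Across loci, same-numbered mannitol and control arrays of mature leaf deviated together at r of 0.29, 0.42 and 0.059, and those of the other harvests at 0.43, 0.32 and 0.18 (seedlings), 0.27, 0.33 and 0.27 (proliferating leaf) and 0.12, 0.21 and 0.16 (expanding leaf). Every array correlated best with its own number, a hint from the data and not from the design. The labels do not tie a number to an experiment, and the numbers were not taken as pairs in the fit as reported. Its estimate of spread therefore includes any difference shared by arrays of the same number. The replicate block gave 990 rises and 823 falls, and 542, 1014 and 1339 loci that differed from seedlings, proliferating leaf and expanding leaf. In mature leaf the block gave 6 rises among salicylate genes, 6 among camalexin and indole glucosinolate genes, 14 among aliphatic glucosinolate genes and 4 among chitinases, 6 falls among heat shock genes, and 4 falls each among jasmonate, senescence and sugar transport genes. Array weights gave 930 rises, 707 falls, 630 differences from seedlings and 1085 from expanding leaf, and median centring 627 falls. Asking for 2-fold or more left 71 rises, 26 falls and 134, 234 and 264 differences from the 3 harvests in the same order. Leaving out 1 array gave 298 to 797 rises, 156 to 767 falls, and 151 to 409, 337 to 750 and 436 to 998 differences. The cause of these shifts was not tested. Dim loci limit the measurement of low levels, and 3 arrays a group limit every test.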

Other observations

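Clock genes were lower with mannitol at 20 of 23 measured members, with a median change of -0.14 against -0.04 over all loci. Of these 1 passed in limma: ELF3, a component of the evening complex, fell by 0.51, and the list held 0 falls when any array but control replicate 2 was left out.

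Regulators of leaf growth were lower at 11 of 13 measured members, with a median change of -0.15 against -0.04 over all loci. They had 0 calls in limma, and 1 higher and 3 lower at an unadjusted p under 0.05. With control replicate 2 left out 2 fell, as under median centring, a trended and robust prior, array weights and the replicate block. Of 15 measured aquaporins 2 rose, the plasma membrane channel PIP2;5 by 0.47 and the vacuolar channel TIP1;1 by 0.34, and 1 rise was left when any array but control replicate 1 was left out. Of 30 measured cysteine-rich receptor-like kinases CRK24 rose by 0.67, a call lost without mannitol replicate 1 or 2 or control replicate 2 or 3, and CRK4 fell by 1.21. The list had 2 rises when mannitol replicate 2 or control replicate 1 or 2 was left out. DIC1, a mitochondrial dicarboxylate carrier, rose by 1.09 among 20 genes of alternative respiration, of which 2 rose and 0 fell. With any array but mannitol replicate 2 left out 1 rose, and with control replicate 2 left out 1 also fell.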
